A study of Mus musculus with 4 samples.

Results

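The 9 genes described here encode proteoglycans of the stromal extracellular matrix, taken by gene name from a Ribo-seq table of 55573 genes. Of them, 7 encode small leucine-rich proteoglycans, namely decorin (Dcn), biglycan (Bgn), asporin (Aspn), lumican (Lum), fibromodulin (Fmod), PRELP (Prelp) and osteoglycin (Ogn). The other two encode the large proteoglycans versican (Vcan) and perlecan (Hspg2). Ribo-seq, which reads the mRNA fragments covered by ribosomes, was done on primary myoblasts labelled Day 2 of proliferation, from hind-limb muscles of 3-week-old mice, with 2 libraries labelled WT and 2 labelled eIF5A knockout (KO). The KO mice carried floxed eIF5A alleles and a tamoxifen-inducible Cre expressed from Pax7 (Pax7 CreERT2/+; eIF5A f/f), in the C57BL/6j background, and WT littermates served as controls. The study describes these controls in one place as Pax7 CreERT2/+ and in another as Pax7 +/+; eIF5A f/f, and calls the KO mice tamoxifen-induced. All cells were grown in serum with FGF and treated with cycloheximide. Because the Cre is restricted to Pax7-expressing cells and their progeny, other cell types in such a culture keep the gene. The labels name the libraries WT1, WT2, KO1 and KO2 and do not say whether they came from separate mice, so the tests measure the spread between these libraries, which may be technical.

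A proteoglycan is a core protein that carries sulfated sugar chains, the glycosaminoglycans. Small leucine-rich proteoglycans bind collagen fibrils through arrays of leucine-rich repeats and control their width and spacing, and decorin and biglycan also bind growth factors such as TGF-beta. Versican binds hyaluronan in the loose matrix of growing or healing tissue, and perlecan carries heparan sulfate in basement membranes, including the one around each muscle fibre. In muscle these genes are most strongly used by fibroblasts and fibro-adipogenic progenitors, with perlecan also made by endothelial cells, and Dcn and Lum are common markers of such stromal cells.

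The coding sequences below show the features by which the core proteins differ. They were read from GENCODE vM21 transcripts (GRCm38), each within the longest complete coding sequence of its gene, 5′ to 3′, and each lies in coding exons. The first stretches hold the earliest serine-glycine codon pairs, in capitals, of Dcn, Bgn and Hspg2. Chondroitin, dermatan and heparan sulfate chains are attached to a serine that is followed by glycine, whereas keratan sulfate is attached otherwise, and these are the known attachment sites of decorin, biglycan and perlecan. Dcn has 1 such pair in its stretch (codons 34 and 35), Bgn has 2 (from codon 42 to 49) and Hspg2 has 3 (from codon 65 to 77). The Dcn stretch is chr10:97483438-97483491 and the Bgn stretch chrX:73490889-73490960, both on the plus strand and each within 1 exon. The Hspg2 stretch runs over 3 exons between chr4:137501164-137507811, plus strand.
Dcn: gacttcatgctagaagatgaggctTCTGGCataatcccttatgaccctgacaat
Bgn: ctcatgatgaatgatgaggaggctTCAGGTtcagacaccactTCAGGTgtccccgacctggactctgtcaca
Hspg2: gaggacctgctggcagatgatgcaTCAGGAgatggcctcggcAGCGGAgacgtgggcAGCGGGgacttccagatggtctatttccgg

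Asporin is named for a run of aspartates near its start and carries no such chain. In the mouse coding sequence (chr13:49551751-49551825, plus strand, 1 exon) the aspartate codons are in capitals. They include 2 runs of at least 3.
Aspn: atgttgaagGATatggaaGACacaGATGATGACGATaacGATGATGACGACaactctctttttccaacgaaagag

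Hypusinated eIF5A is known for helping ribosomes through consecutive proline codons, so the longest proline runs are shown as well, in capitals. A run of at least 3 proline codons is present in 3 of the 9 genes, Fmod, Prelp and Hspg2, and in 20.1% of all protein-coding genes of the table with a coding sequence in GENCODE. Fmod has 1 run of 4 codons (chr1:134040401-134040460, plus strand), Prelp 1 run of 3 (chr1:133915211-133915267, minus strand), and Hspg2 has 4 runs, of which the longest has 4 codons (chr4:137510969-137511028, plus strand). The other 6 genes have at most 2 proline codons in a row.
Fmod: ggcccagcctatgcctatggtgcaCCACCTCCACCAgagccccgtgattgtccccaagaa
Prelp: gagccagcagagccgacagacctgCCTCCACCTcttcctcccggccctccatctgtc
Hspg2: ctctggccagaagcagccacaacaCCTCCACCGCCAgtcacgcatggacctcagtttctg

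Libraries held 642429 to 704006 gene-assigned reads, of which 41.5% and 33.9% fell on protein-coding genes in WT1 and WT2, and 65.4% and 59.2% in the libraries labelled KO1 and KO2. This share separated the labels, and its part in the results was not tested. The targeted gene was examined first. Eif5a had 34.9 and 65.2 RPKM in WT1 and WT2, and 60.3 and 59.4 RPKM in the libraries labelled KO1 and KO2. RPKM is reads per kilobase of gene length, here relative to a scaled library size. The log2 difference, labelled KO minus WT, was 0.32 ± 0.48 (SE; limma, adjusted p = 0.839). Footprints on Eif5a thus did not separate the labels, and directions below are between labels only. Markers of the labelled myoblasts were present in every library but unequal. The summed level of 18 myogenic markers was 429 and 230 RPKM in WT1 and WT2, and 135 and 146 RPKM in the libraries labelled KO1 and KO2. Of the 13 myogenic markers tested, 6 met a joint criterion, at least a 2-fold difference with a limma p-value under 0.05 before adjustment. All 6 were lower in the libraries labelled KO, where 4.29% of all genes tested met it in that direction. Of the 6, Myf5 had 8 and 4 reads in WT1 and WT2 and 2 and 0 reads in the libraries labelled KO1 and KO2. It passed the filter on low values through WT alone. Myog had 82 reads and Actc1 62 reads in WT1, against 1 to 5 reads in each of the other libraries. Pax7, the satellite cell transcription factor, had 30, 10, 5 and 7 reads in the order WT1, WT2, KO1, KO2. Myod1 had 140, 117, 48.6 and 79.8 RPKM and Des, which encodes desmin, 46.0, 40.1, 13.8 and 21.4 RPKM in that order. Markers of other cells were present too. Fibroblast markers summed to 452 to 784 RPKM over the libraries and endothelial markers to 267 to 456 RPKM.

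Decorin had the highest footprint level of the set in every library. Its level was 240 and 126 RPKM in WT1 and WT2 (843 and 346 reads), and 460 and 171 RPKM in the libraries labelled KO1 and KO2 (2435 and 807 reads). Only the library labelled KO1 lay above both WT libraries, and the library labelled KO2 lay below WT1, so the groups overlapped. Dcn alone took 0.529% of the protein-coding reads in the library labelled KO1 (Wilson 95% interval 0.509% to 0.551%), against 0.313% (0.293% to 0.335%) in WT1, 0.210% (0.196% to 0.225%) in the library labelled KO2 and 0.159% (0.143% to 0.177%) in WT2. These reads carry no molecular identifiers, so this interval and all that follow from read numbers cover counting error only. The group means were 183 ± 80.4 RPKM in WT and 316 ± 204 RPKM in the libraries labelled KO (SD, n = 2). On the scale of log2(RPKM + 1) the difference, labelled KO minus WT, was 0.69 ± 0.69 (SE), and its 95% interval ran from -0.998 to 2.38 (limma, adjusted p = 0.747). Without the library labelled KO1 it was -0.02, and without the library labelled KO2 it was 1.40.

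Biglycan, the closest relative of decorin, followed. It had 109 and 83.9 RPKM in WT1 and WT2 and 135 and 75.7 RPKM in the libraries labelled KO1 and KO2. The libraries labelled KO were thus the highest and the lowest of the 4, with means of 96.5 ± 17.8 RPKM in WT and 105 ± 41.7 RPKM (SD, n = 2). The log2 difference was 0.08 ± 0.51 (SE), and its 95% interval ran from -1.17 to 1.33 (limma, adjusted p = 0.970). It became -0.33 without the library labelled KO1 and 0.49 without the library labelled KO2. Asporin, the third gene of this subclass, had few reads. There were 0 reads in WT1 and 4 reads in each of the other libraries, equal to 3.61 RPKM in WT2 and 1.87 and 2.10 RPKM in the libraries labelled KO1 and KO2. The count of 0 allows a level of up to 3 reads in WT1, so no direction can be read at this depth. Its fitted log2 difference was 0.48 ± 0.82 (SE; limma, adjusted p = 0.860).

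Lumican, fibromodulin and PRELP form the second subclass. Lumican, which carries keratan sulfate and binds fibrillar collagen, had 16.9 and 8.67 RPKM in WT1 and WT2 and 40.1 and 20.7 RPKM in the libraries labelled KO1 and KO2, from 25, 10, 89 and 41 reads. Both libraries labelled KO lay above both WT libraries. The means were 12.8 ± 5.85 RPKM in WT and 30.4 ± 13.7 RPKM in the libraries labelled KO (SD, n = 2), a 2.37-fold ratio. The log2 difference was 1.18 ± 0.53 (SE), and its 95% interval ran from -0.12 to 2.49. Its limma p-value was 0.0682 before and 0.676 after adjustment. Without the library labelled KO1 the difference was 0.72.

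Fibromodulin, a collagen-binding keratan sulfate proteoglycan abundant in tendon, had 5.52 and 8.99 RPKM in WT1 and WT2, and 11.3 and 16.1 RPKM in the libraries labelled KO1 and KO2. These rested on 11, 14, 34 and 43 reads. The groups did not overlap, and Fmod was the one gene of the set with its highest level in the library labelled KO2. The log2 difference was 0.85 ± 0.42 (SE), and its 95% interval ran from -0.20 to 1.89 (limma, adjusted p = 0.676). Without WT1 it was 0.54.

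PRELP, which links collagen to heparan sulfate of basement membranes, had 39.9 RPKM in WT1 (87 reads) and 8.22 RPKM in WT2 (14 reads). The libraries labelled KO1 and KO2 had 10.98 and 5.48 RPKM (36 and 16 reads). WT1 stood apart, and the remaining libraries differed from each other by less. The means were 24.1 ± 22.4 RPKM in WT and 8.23 ± 3.89 RPKM in the libraries labelled KO (SD, n = 2). The log2 difference was -1.14 ± 0.77 (SE), and its 95% interval ran from -3.04 to 0.76 (limma, adjusted p = 0.697). Without WT1 it was -0.07 and without WT2 it was -2.22. Myogenin (Myog), a differentiation factor, was also concentrated in WT1, with 82 reads there and 3, 1 and 2 reads in WT2 and the libraries labelled KO1 and KO2. The markers Ngfr and Sox10 of Schwann cells were likewise highest in WT1, with 60 reads for Ngfr against 7, 34 and 19, and 15.8 RPKM for Sox10 against 4.87, 13.7 and 8.93 RPKM. The part of such cells in the value of Prelp was not tested.

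Osteoglycin, the one gene here of the third subclass, had 1 and 0 reads in WT1 and WT2 and 6 and 3 reads in the libraries labelled KO1 and KO2. The groups did not overlap, but 3 of the 4 libraries did not exceed 3 reads. The gene passed the filter on low values through the libraries labelled KO alone, and neither a fold nor a fitted difference is given.

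Of the 2 large proteoglycans, versican had 2.41 and 2.50 RPKM in WT1 and WT2, from 21 and 17 reads, and 16.5 and 6.68 RPKM in the libraries labelled KO1 and KO2, from 217 and 78 reads. The WT libraries were nearly equal and both libraries labelled KO lay well above them. The means were 2.45 ± 0.0611 RPKM in WT and 11.6 ± 6.98 RPKM in the libraries labelled KO (SD, n = 2), a 4.74-fold ratio. The log2 difference was 1.75 ± 0.49 (SE), and its 95% interval ran from 0.53 to 2.96. Its limma p-value was 0.0126 before and 0.635 after adjustment. With voom, limma's weighted fit for reads, run on the reads recovered from RPKM, the log2 difference of Vcan was 2.11 with an adjusted p-value of 0.0377. This call held in that fit alone. Voom gave an adjusted p-value of 0.0996 among protein-coding genes and 0.117 among genes with at least 40 reads. Without the library labelled KO1 the limma difference was 1.15, and an unadjusted p-value under 0.05 was kept only when the library labelled KO2 was the one left out.

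Perlecan had 79.2 and 49.5 RPKM in WT1 and WT2 and 55.5 and 37.9 RPKM in the libraries labelled KO1 and KO2, from 344 to 742 reads a library. The groups overlapped, since the library labelled KO1 lay above WT2. The means were 64.4 ± 21.0 RPKM in WT and 46.7 ± 12.5 RPKM in the libraries labelled KO (SD, n = 2). The log2 difference was -0.44 ± 0.48 (SE), and its 95% interval ran from -1.62 to 0.74 (limma, adjusted p = 0.770). It was -0.11 without WT1 and -0.78 without WT2.

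**Figure D1:**
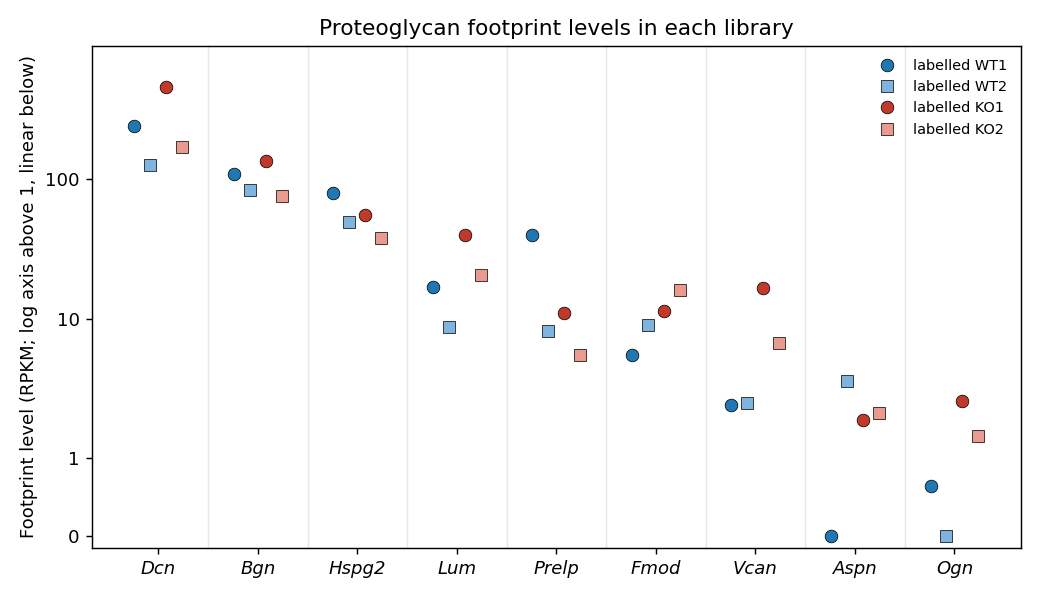
Footprint level in RPKM (vertical axis, logarithmic above 1 and linear below) of the 9 proteoglycan genes in each of the 4 libraries, 1 point a library. Dcn reached 460 RPKM in the library labelled KO1, and Prelp stood out in WT1 at 39.9 RPKM. Lum, Fmod and Vcan had both points labelled KO above both WT points. So did Ogn, but it has 10 reads in all and its separation carries no weight.

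No gene of the set passed an adjusted p-value of 0.05 in limma, where 0.106% of the 11363 genes tested did. Before adjustment, Vcan alone was below 0.05, as were 7.32% of all genes, and it was also the 1 gene to meet the joint criterion of fold and p-value. Over all genes 2.67% met this joint criterion with a higher level in the libraries labelled KO and 4.29% with a lower one. All 9 genes passed the filter on low values. For 4 of the 9 genes (44.4%) the groups were fully apart, Lum, Fmod, Ogn and Vcan, all 4 higher in the libraries labelled KO. Of these, Ogn has 10 reads in all and passed the filter only through the group where it is higher, so its separation carries no weight. Over all genes 40.4% were, 20.1% in this direction and 20.3% in the other, so the number over both directions was near the background. The median log2 difference was 0.69 for the set and 0.00026 for all genes tested. Without Ogn, groups were apart for 3 of 8 genes (37.5%) and the median was 0.58. After the correction for GC content and coding length given below, groups were apart for 3 of the 9 genes, against 40% of the protein-coding genes then tested.

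**Figure D2:**
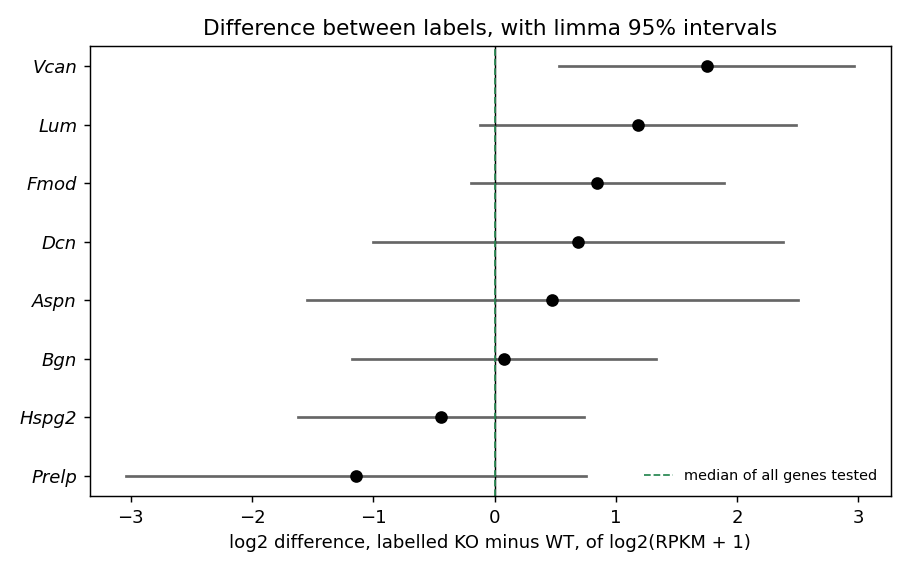
Fitted log2 difference, labelled KO minus WT, of log2(RPKM + 1) for 8 genes (points; Ogn is not drawn) with the 95% interval from limma (lines). The dashed line is the median of all genes tested, and of the 8 intervals that of Vcan, from 0.53 to 2.96, is the one that does not cross 0.

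Because single libraries might carry the differences, the libraries were also set against each other. Ogn, with 10 reads, is left aside in these counts. The library labelled KO1 was the highest of the 4 for 4 of the 8 genes, Dcn, Bgn, Lum and Vcan, where this was so for 24.3% of all genes tested. It lay above the library labelled KO2 for 6 of 8 genes, against 46.5% of all genes. WT1 lay above WT2 for 5 of 8, against 48.8%. The first library of each label was above the second for 5 of 8 genes (Dcn, Bgn, Lum, Prelp and Hspg2), against 23.8% of all genes.

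For Dcn, Bgn, Hspg2 and Prelp, libraries of the same label differed by more than counting error within both labels. Dcn was 2.69-fold higher in the library labelled KO1 than in that labelled KO2 (95% counting interval 2.48 to 2.91) and 1.90-fold higher in WT1 than in WT2 (1.68 to 2.16). Between the first libraries, KO1 over WT1, its ratio was 1.92 (1.77 to 2.08), and between the second it was 1.36 (1.20 to 1.55). For Prelp the ratio was 4.86 for WT1 over WT2 (2.74 to 9.25) and 2.00 for KO1 over KO2 (1.08 to 3.87). Bgn had 1.78 (1.57 to 2.02) for KO1 over KO2 and 1.30 (1.11 to 1.53) for WT1 over WT2, and Hspg2 had 1.47 (1.30 to 1.65) and 1.60 (1.40 to 1.82).

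For Vcan and Lum both ratios between libraries of the same number had intervals above 1. The ratio of Vcan was 6.87 for KO1 over WT1 (4.38 to 11.3) and 2.68 for KO2 over WT2 (1.57 to 4.83), while WT1 over WT2 gave 0.965 (0.485 to 1.95) and KO1 over KO2 gave 2.48 (1.90 to 3.25). Lum was 2.37-fold higher in KO1 than in WT1 (1.504 to 3.85) and 2.39-fold higher in KO2 than in WT2 (1.18 to 5.35), and its ratio was 1.22 (0.727 to 2.10) for KO2 over WT1. Its ratio for KO1 over KO2 was 1.93 (1.32 to 2.87). Every ratio of a library labelled KO to a WT library had an interval above 1 for Vcan, and for Lum all except KO2 over WT1. Hspg2 was lower in KO1 than in WT1, with a ratio of 0.701 (0.631 to 0.778), and in KO2 than in WT2, with 0.765 (0.663 to 0.883), but for KO1 over WT2 the ratio was 1.12 (0.985 to 1.28).

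**Figure D3:**
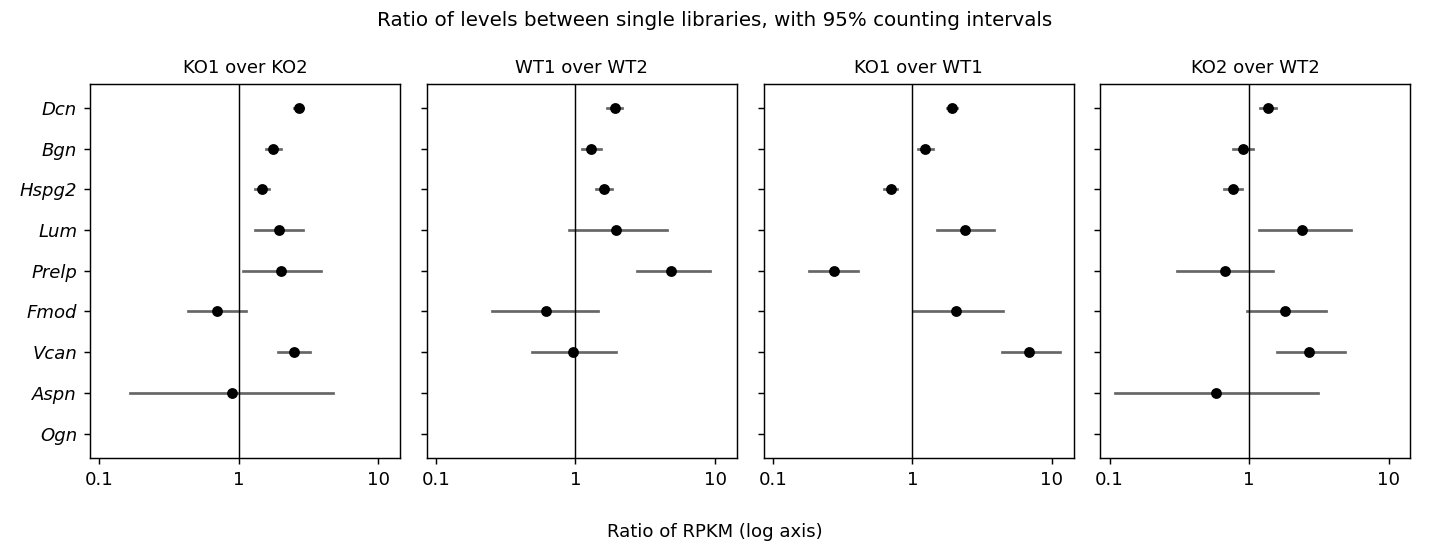
Ratio of RPKM between single libraries (horizontal logarithmic axis) for each gene, with exact binomial 95% intervals that cover counting error only, in 4 pairs of libraries. Pairs in which a library had 3 reads or fewer are not drawn, which leaves out Ogn. Vcan had ratios of 6.87 and 2.68 between labels, 0.965 within WT and 2.48 between the libraries labelled KO.

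The order of the levels held down to perlecan. In each library Dcn was above Bgn, Bgn above Hspg2, and Hspg2 above Lum. From Lum downwards (Prelp, Fmod, Vcan, Aspn, Ogn, by mean RPKM) the order of neighbours changed from library to library. Dcn took 40.3% and 34.9% of all reads on the 9 genes in WT1 and WT2, and 56.5% and 44.4% in the libraries labelled KO1 and KO2. The distances between levels depend on what counts as length. The deposited gene length includes untranslated parts and equalled the union of all annotated exons for 8 of the 9 genes, whereas ribosomes cover mostly the coding part. That part is 18.2% of the length for Dcn (1062 of 5838 bases) and for Bgn (1107 of 6099 bases), but 69.6% for Vcan and 89.2% for Hspg2. Per kilobase of coding sequence the mean level of Dcn was 22.0 times that of Hspg2, against 4.48 times by RPKM, and the rank order of the 9 genes was the same on both scales.

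The small leucine-rich genes lie in clusters. Dcn (chr10:97479609-97518143) and Lum (chr10:97565128-97572703) share a strand of chromosome 10 with 47.0 kb and no other protein-coding gene between them. Aspn (chr13:49544443-49567565) and Ogn (chr13:49608046-49624501) lie 40.5 kb apart on chromosome 13 with Omd, which had no reads in any library, between them. Prelp (chr1:133910304-133921414) and Fmod (chr1:134037254-134048277) lie 116 kb apart on chromosome 1, on opposite strands, again with no coding gene between. Bgn (chrX:73483602-73495933), Vcan (chr13:89655312-89742509) and Hspg2 (chr4:137468769-137570630) stand apart from these clusters. Neighbours differed in level. The mean was 249 RPKM for Dcn and 21.6 RPKM for Lum, and Fmod and Prelp had differences of opposite sign (0.85 and -1.14), which was not tested.

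Over all protein-coding genes the log2 difference varied with coding GC content. From the lowest GC decile (32.3% to 44.7%) to the highest (60.6% to 77.9%) the median went from 0.38 to -0.48. The proteoglycans span this range, from 38.4% in Aspn and 38.5% in Ogn through 44.2% in Vcan, 44.5% in Lum, 47.6% in Dcn and 53.3% in Bgn to 56.4% in Fmod, 56.5% in Prelp and 60.9% in Hspg2. For Hspg2 and Bgn the difference lay within 0.06 of the median of their deciles. Vcan lay 1.37 above the median of its decile, Lum 0.81 above and Dcn 0.47 above. Fmod lay 0.91 above and Prelp 1.08 below the same decile, with nearly the same GC content and with a proline run in each. With each library corrected for its trend over GC and coding length, the log2 difference was 1.63 ± 0.43 for Vcan, 0.93 ± 0.39 for Fmod, 0.82 ± 0.50 for Lum, 0.39 ± 0.62 for Dcn, 0.05 ± 0.69 for Aspn, -0.03 ± 0.45 for Bgn, 0.12 ± 0.37 for Hspg2 and -1.05 ± 0.69 for Prelp (SE), with the signs of Bgn and Hspg2 turned. The 3 genes with a proline run of at least 3 codons had differences of 0.85, -1.14 and -0.44, and those without, Ogn left aside, ranged from 0.08 to 1.75. GC content differed in the same way between these genes and cannot be told apart from the runs here.

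**Figure D4:**
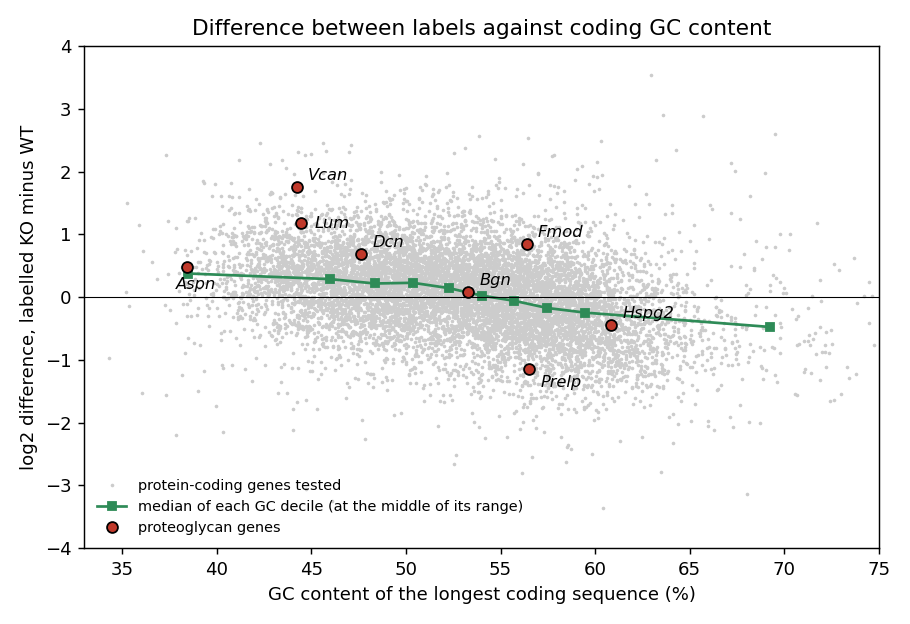
Log2 difference, labelled KO minus WT, against the GC content of the longest coding sequence, for protein-coding genes tested (grey points), the median of each GC decile (green) and 8 of the proteoglycan genes (red; Ogn is not drawn). The decile medians fall from 0.38 to -0.48, Hspg2 and Bgn lie near them, and Vcan lies 1.37 above.

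The summed level of the proteoglycans had the same order over the libraries as that of fibroblast markers. All 20 genes of the fibroblast and fibro-adipogenic progenitor list were in the table, and 19 had reads. Their summed level was 622 and 452 RPKM in WT1 and WT2 and 784 and 481 RPKM in the libraries labelled KO1 and KO2, while that of the 9 proteoglycans was 493, 291, 733 and 337 RPKM. Osr1, a transcription factor of muscle stromal cells, was at 0 in all libraries, and Twist2 had reads in the library labelled KO2 alone. Pdgfra, the defining receptor of fibro-adipogenic progenitors, had 43.4, 31.6, 88.2 and 43.6 RPKM, so that the library labelled KO2 was almost equal to WT1. Ly6a had 150, 134, 214 and 129 RPKM and Mmp2, a matrix protease, had 146, 80.0, 85.7 and 77.9 RPKM. Of the 16 fibroblast markers tested, 10 had a positive and 6 a negative difference, none met the joint criterion, and the median was 0.15. Footprint levels were not set against mRNA levels here, so they are not translation efficiencies. In bulk libraries, changes in the number of such cells, in mRNA level per cell and in translation per cell cannot be told apart. The part of fibroblast content in the values of the proteoglycans was not tested.

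Tenocyte markers, whose cells make much Fmod, summed to 138 and 122 RPKM in WT1 and WT2 and to 233 and 169 RPKM in the libraries labelled KO1 and KO2, and most of this was Thbs4, with 116 to 215 RPKM. All 9 had reads, and 6 were tested. Tnmd had 2, 1, 13 and 7 reads and Comp 2, 0, 12 and 9 reads, and both met the joint criterion with both WT libraries under the floor of 3 reads. Comp passed the filter on low values only through the libraries labelled KO. Scx, a defining tendon factor, had 8 and 1 reads in WT1 and WT2 and 0 in both libraries labelled KO. The part of such cells in the value of Fmod was not tested. For endothelial cells, a source of perlecan, Cdh5 had 71.0, 63.6, 87.1 and 68.0 RPKM and Cldn5 had 73.8, 166, 148 and 238 RPKM, and Esam had 38.2, 62.9, 44.6 and 49.2 RPKM. All 10 endothelial markers had reads, and of the 9 tested 1 met the joint criterion, Kdr, higher in the libraries labelled KO (2.67% of all genes). Groups were apart for 5 of the 9, all higher in the libraries labelled KO, against 20.1% of all genes. Mural markers summed to 138 to 179 RPKM in WT and 76.7 to 111 RPKM in the libraries labelled KO, immune markers to 48.2 to 76.5 and 51.4 to 68.0 RPKM, and Schwann markers to 18.6 to 60.4 and 27.2 to 36.9 RPKM. The highest of these were Acta2 (98.2, 73.5, 46.7 and 67.1 RPKM), Des and Rgs5 among mural, Cd14 (17.2, 22.1, 31.8 and 23.6 RPKM), Cd68 (15.8, 23.6, 14.9 and 14.8 RPKM) and Lyz2 (11.3, 12.9, 4.19 and 5.64 RPKM) among immune, and Ngfr and Sox10 among Schwann markers. Groups were apart for 5 of the 6 mural markers tested with lower values in the libraries labelled KO, against 20.3% of all genes. Des met the joint criterion, and it is also in the myogenic list, so these 2 lists are not separate. Of the 5 immune markers tested, Lyz2 met this criterion with lower values, from 9, 8, 5 and 6 reads, against 4.29% of all genes. Adgre1 met it with higher values, against 2.67% of all genes. It had 1, 3, 13 and 11 reads, with both WT libraries at or under the floor of 3 reads. The median difference of the 5 was -0.36. Among immune markers Itgam and C1qa were at 0 in every library. Their part in the results was not tested.

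**Figure D5:**
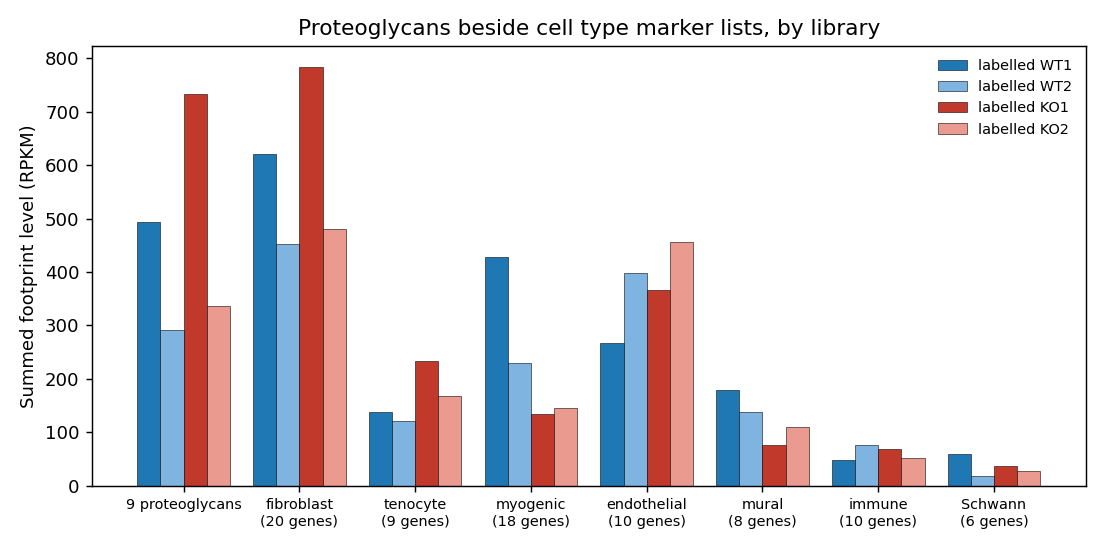
Summed footprint level in RPKM of the 9 proteoglycan genes and of 7 lists of cell type markers in each library (bars). The proteoglycans and the fibroblast markers were highest in the library labelled KO1, at 733 and 784 RPKM, while the myogenic markers were highest in WT1, at 429 RPKM.

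The genes that build and modify the sugar chains, and the other core proteins, were examined in 6 lists holding 114 genes, of which 67 were tested. None passed the adjusted threshold. The joint criterion was met by 3 genes (4.48%), all higher in the libraries labelled KO, where the background in that direction was 2.67%. Groups did not overlap for 26 of the 67 (38.8%), 15 with higher and 11 with lower values in the libraries labelled KO, near the background of 40.4%. Of the 67, 9 passed the filter on low values through 1 group alone, Chad and Kera among them. Over the other 58, 2 met the joint criterion (3.45%), both with higher values. Groups did not overlap for 34.5% of the 58, 11 with higher and 9 with lower values. Over all genes that reached the filter in both groups, 2.3% met the criterion with higher values, and groups did not overlap for 39.9%.

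Among 11 other small leucine-rich proteoglycans, 4 had no reads and 3 were tested. Tsku, a secreted signalling modulator, was the highest of them, with 6.53, 11.8, 11.6 and 11.4 RPKM in the order WT1, WT2, KO1, KO2. Chad, which encodes the cartilage protein chondroadherin, had 0, 1, 6 and 8 reads and met the joint criterion, with both WT libraries at or under the floor. Kera, the keratan sulfate proteoglycan of the cornea, had 0, 2, 4 and 4 reads.

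Other core proteins and hyaluronan partners numbered 38, of which 21 were tested, 15 with a positive and 6 with a negative difference and a median of 0.39. Prg4 (lubricin) had 101, 72.9, 152 and 77.2 RPKM, with the same order of libraries as Dcn. The cell surface syndecan Sdc4 had 87.3, 98.3, 89.2 and 101 RPKM. The glypican Gpc4 had 36.9 and 28.0 RPKM in WT1 and WT2 and 185 and 55.1 RPKM in the libraries labelled KO1 and KO2, with 446 reads in the first of these, and missed the criterion with a log2 difference of 1.62 ± 0.66 (SE) (limma, adjusted p = 0.672). Sdc2 met it, with 8 and 4 reads in WT1 and WT2 against 22 and 21 reads in KO1 and KO2 as labelled.

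Enzymes that supply the precursors and build the linkage region were tested for 13 of 17 genes, with a median difference of -0.13. Ugdh, which makes the glucuronic acid donor, had 13.0 and 36.2 RPKM in WT1 and WT2 and 43.4 and 49.1 RPKM in the libraries labelled KO1 and KO2, with groups that did not overlap. Ugp2, which makes its substrate, had 4.86, 15.9, 15.1 and 11.3 RPKM, and groups overlapped. Papss1, which makes the sulfate donor, met the joint criterion, with 6.52 and 9.73 RPKM in WT against 22.4 and 19.5 RPKM, a log2 difference of 1.28 ± 0.40 (SE) (limma, adjusted p = 0.660).

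None of the genes in the remaining lists met it. Chondroitin and dermatan sulfate enzymes had 13 of 16 tested and a median of -0.05. Chst14, which sulfates dermatan sulfate of the kind carried by decorin, had 7.94 and 6.09 RPKM in WT against 15.3 and 14.2 RPKM in the libraries labelled KO, from 6 to 29 reads. The sulfotransferase Chst12 had 9.13, 3.59, 10.7 and 10.5 RPKM, and Chpf, a chain polymerizing factor, 6.45, 11.6, 6.00 and 7.71 RPKM. Heparan sulfate enzymes, which act on perlecan, had 13 of 23 tested and a median of -0.41, with 4 positive and 9 negative differences. Ndst1, which starts the sulfation of heparan sulfate, had 16.0 and 14.1 RPKM in WT against 6.39 and 11.1 RPKM in the libraries labelled KO. Extl3 had 13.7 RPKM in WT1 and 7.35 to 7.70 RPKM elsewhere, and the polymerase Ext2 had 4.34 to 5.58 RPKM. Keratan sulfate enzymes had 4 of 9 tested and a median of 0.30, with groups that overlapped for each of the 4. B4galt1 had 24.3, 11.03, 27.3 and 19.3 RPKM, Chst1 had 1.86, 11.9, 4.94 and 6.47 RPKM, and B4galt4 had 8 reads or fewer in each library.

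Genes near the mean profile of the members with most reads were sought over the 4 libraries. The reference was the mean of the centred log2(RPKM + 1) profiles of Dcn, Bgn, Vcan and Hspg2, the 4 members with at least 200 reads, and it stood at -0.02, -0.50, 0.76 and -0.24 in WT1, WT2, KO1 and KO2. Of 1510 other protein-coding genes with at least 200 reads, the nearest were Iqgap1, Eif5b, Lima1, Ifi207, Ktn1 and Uggt1, at root-mean-square distances of 0.035, 0.069, 0.075, 0.077, 0.077 and 0.079 on the log2 scale. The median distance was 0.52. Iqgap1, a cytoskeletal scaffold, had 16.9, 11.2, 27.6 and 13.9 RPKM in WT1, WT2, KO1 and KO2, with the highest value in the library labelled KO1 and WT1 above the library labelled KO2. With 4 libraries, many genes can share such a profile. The 4 members differed among themselves, since Hspg2 was highest in WT1 at 79.2 RPKM and Vcan was lowest there at 2.41 RPKM. Nearness to their mean is therefore not likeness to each of them.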

How the data were processed

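Ribo-seq libraries of primary mouse myoblasts were prepared by the authors with cycloheximide (the labels and the methods give different durations), RNase I digestion, MicroSpin S-400 resin and gel selection. Per the methods, rRNA and tRNA reads were removed, Tophat2 aligned the rest and HTSeq counted reads on Ensembl gene models; the labels name mm10. Tool versions, strand and multi-mapping settings were not given in the sources used here. The authors deposited RPKM, 1 column a library.

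RPKM multiplied by the deposited gene length gave whole multiples of 1 step a library for 100.0% of values (tolerance 0.01), from which reads were recovered. The libraries held 648386, 642429, 704006 and 650210 reads (WT1, WT2, KO1, KO2). The implied denominators, 602863, 471136, 906990 and 807705 reads, were in the ratio of median-of-ratios size factors (0.912, 0.713, 1.37 and 1.22), which hides any shift common to most genes. A floor of 3 reads was used, and a ratio or share has a 95% interval (exact binomial or Wilson).

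The test was limma 3.58.1 (R 4.3.3; lmFit, eBayes with trend, group only, 2 against 2 libraries) on log2(RPKM + 1), which understates changes of low genes, over 11363 genes (mean RPKM no less than 1). P-values were two-sided, with Benjamini-Hochberg adjustment over all genes. The joint criterion was a 2-fold difference with an unadjusted p-value under 0.05. An exact permutation test of 2 against 2 cannot go below 0.333. The script was tested on simulated data. Coding sequences came from GENCODE vM21 (GRCm38), with a sequence for 98.0% of protein-coding genes; gene coordinates were taken from the table itself.

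The members and lists were chosen with earlier results of these data known. Named were the members, in each pathway list the 3 highest genes and those meeting the joint criterion, in each marker list the 3 highest genes, and the 6 genes of nearest profile; other markers named were chosen after their values were seen. One marker that this rule names is not reported here. Of the lists, Bpnt2 (in the table under its older symbol Impad1) and Chst6 were not matched and count as list members that were not tested. Alternatives were other pseudocounts, filters, scalings and fits, the replicate block, and each library left out.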

Additional observations from a re-analysis of the deposited data

How the results depend on the processing

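No member passed the adjusted threshold under any alternative except Vcan with voom on recovered reads, where 1 was called, as were 74 of all 11363 genes (0.651%). Members meeting the joint criterion of fold and p-value numbered 1 as reported. This was Vcan, which met it in every fit with all 4 libraries. They numbered 3 with voom and with voom on protein-coding genes alone (Lum and Vcan higher, Prelp lower) and on total reads (Lum, Fmod and Vcan higher), and 2 with voom on genes with at least 40 reads, among median-centred protein-coding genes, with the replicate block, and with that block after the GC and length correction, the second being Prelp, lower, in the last and Lum, higher, in the others. Over all genes this criterion was met by 6.96% as reported, 15.3% on total reads, 9.26% to 10.6% in the voom fits and 7.19% to 7.76% in the other fits just named. On leaving out a library they numbered from 0 to 1, with 0 without the library labelled KO1. Vcan met it only without the library labelled KO2 (limma, unadjusted p = 0.0256), and had unadjusted p-values of 0.124 to 0.142 without each of the others. The 1 member was Ogn without WT1 and Aspn without WT2, which have 10 and 12 reads. The median log2 difference moved from 0.69 to 0.93 with a pseudocount of 0.1, to 0.97 with voom (0.97 among protein-coding genes), to 1.30 on total reads, where the median of all genes moved to 0.47, and to 0.39 after the GC and length correction, whether or not the replicate block was used. It ranged from 0.53 to 0.74 with a library left out. Members whose groups did not overlap numbered 6 to 7 then, with 7 without WT2 or without the library labelled KO1, where fewer libraries make separation easier (62.1% to 75.4% of all genes).

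Signs turned for Hspg2 (0.16 on total reads, 0.12 after the GC and length correction, blocked or not), for Bgn (-0.025 after that correction, blocked or not, -0.036 on protein-coding reads, -0.11 without WT2 and -0.33 without the library labelled KO1), for Aspn (-0.63 without WT1) and for Dcn (-0.021 without the library labelled KO1). With a library left out, Dcn ranged up to 1.40, Bgn up to 0.49 and Aspn up to 1.58. Lum, Fmod and Vcan stayed positive and Prelp negative in all fits in which they were tested. Leaving out a library leaves 1 arm with a lone library, assumed to vary like the others. Scaling to protein-coding reads, both restricted voom fits and the counts without Ogn were chosen after seeing the data. Replicate numbers only name the libraries. Differences between the first and second library correlated across genes between labels (Pearson's r of 0.22 over 2270 genes, which are not independent), and the block changed no call at the adjusted threshold among the members. Depth limits Aspn and Ogn, which had 12 and 10 reads in all.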
